A study of Mus musculus with 4 samples.

Results

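The renin-angiotensin genes followed here are Ren1, Agt, Ace, Agtr1a, Agtr2 and Atp6ap2, 6 of the 31053 gene identifiers measured by single-cell RNA sequencing of the mouse testis in 4 libraries. They were chosen by name. Ren1 was put on the list because it was already known to be lower in the cultured libraries, so its whole-library values are a description and not a finding. Each group had 1 library. All animals were C57BL/6 mice with an Acr-Gfp transgene, in which the promoter of a sperm acrosome gene drives green fluorescent protein. Both cultured libraries came from testes of 7 days postpartum (dpp), freed of their capsule, cut into fragments and kept for 2 or 7 days. They lay on agarose in α-MEM medium that held AlbuMAX, a serum albumin product, with the silicone PDMS as a ceiling. The other libraries came from uncultured testes at 9 dpp and 14 dpp. The age at dissection plus the culture time equals the in vivo age in both pairs, so the 2-day culture was set against 9 dpp and the 7-day culture against 14 dpp. The labels do not say whether animals were pooled, and with 1 library per group culture and library cannot be told apart. No test was therefore run, and every interval given is a 95% interval for counting error only.

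In the renin-angiotensin system the liver protein angiotensinogen (Agt) is cut by the protease renin (Ren1) to angiotensin I, which angiotensin-converting enzyme (Ace) trims to angiotensin II. Angiotensin II acts on type 1 receptors (Agtr1a in mouse), which contract vessels, and on type 2 receptors (Agtr2), which are best known from fetal tissue. Atp6ap2 encodes the prorenin receptor, which is also an accessory protein of the vacuolar proton pump and is made by most cells. Kidney renin comes from modified mural cells of small arteries, while in the mouse testis renin is known as a Leydig cell product. Leydig cells are the steroid-producing cells between the tubules, and the testis also has its own short Ace form, made by late germ cells.

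The promoters of the enzyme and the substrate of the first step of the cascade are shown, since Ren1 and Agt are described at most length. Both were taken from RefSeq on GRCm38.p6 and span the 250 bases before the transcription start, read 5′ to 3′ on the strand of the gene. Ren1 (ENSMUSG00000070645) is a protein-coding gene on chromosome 1 from 133350510 to 133360325 in GENCODE, and its window is chr1:133350424-133350673 on the plus strand. The window ends before the RefSeq start at 133350674, which lies downstream of the GENCODE start, so part of it is inside the gene as GENCODE draws it. Agt (ENSMUSG00000031980) is a protein-coding gene on chromosome 8 from 124556534 to 124569706 and its window is chr8:124569707-124569956 on the minus strand. Capitals mark letters that match one of 5 motifs searched on both strands.
Ren1: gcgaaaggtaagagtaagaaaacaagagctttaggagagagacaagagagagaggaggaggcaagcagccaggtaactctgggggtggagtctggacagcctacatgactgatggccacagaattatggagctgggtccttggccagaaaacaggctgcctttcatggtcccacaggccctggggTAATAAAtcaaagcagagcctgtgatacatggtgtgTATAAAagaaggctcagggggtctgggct
Agt: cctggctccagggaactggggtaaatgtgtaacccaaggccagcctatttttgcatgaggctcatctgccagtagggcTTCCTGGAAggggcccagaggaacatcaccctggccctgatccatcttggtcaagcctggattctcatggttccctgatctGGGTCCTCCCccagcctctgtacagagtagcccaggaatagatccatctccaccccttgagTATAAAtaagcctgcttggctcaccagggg
In the Ren1 window the capitals are TAATAAA, a core bound by Hox proteins, at -65 to -59 from the start, and the TATA element TATAAA at -29 to -24. In the Agt window they are the STAT pattern TTCNNNGAA at -172 to -164, the NF-kB pattern (GGGA, any 4 bases, CC) on the other strand at -91 to -82, and TATAAA at -30 to -25. The matches do not overlap. Among the 32851 promoter windows of the same length, TAATAAA occurred in 4.52%, TATAAA in 12.4%, TTCNNNGAA in 7.02% and the NF-kB pattern in 17.6%. The steroidogenic factor 1 pattern AAGGTCA occurred in 4.08% of windows and in none of the members' windows. Promoters were found for 5 of the 6 members, all but Agtr1a. A match describes letters in a window and nothing measured here shows a factor bound there.

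The other members are protein-coding genes as well. Ace (ENSMUSG00000020681) lies on chromosome 11 from 105967945 to 105989964, Agtr1a (ENSMUSG00000049115) on chromosome 13 from 30336441 to 30382867, Agtr2 (ENSMUSG00000068122) on chromosome X from 21484544 to 21489164 and Atp6ap2 (ENSMUSG00000031007) on chromosome X from 12587801 to 12617049 (GRCm38). Agtr1a overlaps Gm48161 on its own strand, so reads of this pair may be mixed. Ace overlaps Gm11651 on the other strand only, which matters only if strand was ignored in counting, a setting not given in the sources used here. The starts of the 3 protein-coding Ace transcripts are spread over 7263 bases and their ends over 711 bases. The libraries tag the 3′ end of transcripts, so the somatic and the germ cell forms of Ace were not separated.

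After filtering, 4816 to 6877 cells per library remained, with 32078508 to 57585867 unique molecular identifiers (UMIs, 1 per captured transcript) per library. Median depth per deposited barcode ran from 3416 UMIs in the 2-day culture to 8489 at 9 dpp. Levels are given as CPM, the UMIs of a gene when those of the cells counted are scaled to a total of 1000000. Cells were put into classes by their marker UMIs, with no member among the markers. Stromal and myoid markers were not allowed to compete with a Leydig or pericyte score that passed. The median pericyte-like cell scored 11.1 on its own list and 12.0 on the stromal or myoid lists at 14 dpp, 12.9 and 11.1 at 9 dpp, 9.43 and 8.14 after 7 days and 8.57 and 3.43 after 2 days. The Leydig-like class had all 6 of its markers (Insl3, Cyp17a1, Cyp11a1, Star, Hsd3b1 and Lhcgr) in each library, and the pericyte-like class had all 7 of its own. Between 29 and 75 cell barcodes were shared by any pair of libraries. Cells that carry both stromal and myoid markers were common, so these were kept as 1 class. In the cultures this class lay mostly in other clusters (8 and 0 after 2 days, 13 and 0 after 7 days) than in vivo (4 and 9).

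Over whole libraries, Ren1 was low in culture and Agt was high after 7 days of culture, while the converting enzyme, the receptors and the prorenin receptor differed less between culture and in vivo. Ren1 stood at 111 CPM (108 to 114, 6402 UMIs) at 9 dpp and 28.6 CPM (27.19 to 30.003, 1606 UMIs) at 14 dpp. In the 2-day culture it stood at 9.26 CPM (8.24 to 10.4, 297 UMIs) and in the 7-day culture at 0.377 CPM (0.206 to 0.633, 14 UMIs). Both cultured libraries lay below both in vivo libraries. The ratio of CPM was 12.0-fold lower (10.7 to 13.5) in the 2-day culture than at 9 dpp and 75.7-fold lower (45.0 to 139) in the 7-day culture than at 14 dpp. Within the in vivo libraries Ren1 was 3.89-fold lower (3.68 to 4.11) at 14 dpp than at 9 dpp. In a whole library, fewer cells of a type and less RNA per cell cannot be told apart.

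Agt, the substrate, stood at 24.1 CPM (22.9 to 25.4) at 9 dpp, 33.01 (31.1 to 35.1) after 2 days of culture, 25.3 (24.0 to 26.6) at 14 dpp and 69.2 (66.6 to 72.0) after 7 days. The 7-day culture was thus the highest library, and the in vivo libraries were close to each other. On the log2 scale of CPM + 1 the 7-day culture was 1.42 higher (1.33 to 1.51) than 14 dpp. The 2-day culture was 0.44 higher (0.32 to 0.55) than 9 dpp, but 0.18 lower (a log2 ratio of -0.18) when each cell was given equal weight.

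Ace, the converting enzyme, stood at 15.2 CPM at 9 dpp, 21.2 in the 2-day culture, 8.88 at 14 dpp and 17.1 in the 7-day culture. Its log2 ratios were 0.45 (0.32 to 0.59) for the 2-day pair and 0.87 (0.71 to 1.03) for the 7-day pair. Agtr1a was the scarcest member outside the 7-day culture and 14 dpp, with 4.46 CPM after 2 days, 3.56 after 7 days, 2.78 at 9 dpp and 2.51 at 14 dpp. Its log2 ratios of 0.53 and 0.38 in the pairs turned to -0.020 and -0.36 with each cell weighted equally. Agtr2 was high at the earlier and low at the later time, in vivo and in culture: it stood at 8.42 CPM at 9 dpp and 11.3 in the 2-day culture, against 1.71 at 14 dpp and 1.83 in the 7-day culture. Its 2-day pair ratio of 0.38 turned to -0.36 with equal weights, and its 7-day pair ratio of 0.06, with an interval (-0.22 to 0.35) on both sides of 0, turned to -0.19. Atp6ap2 stayed between 80.9 and 101 CPM in all 4 libraries.

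**Figure D1:**
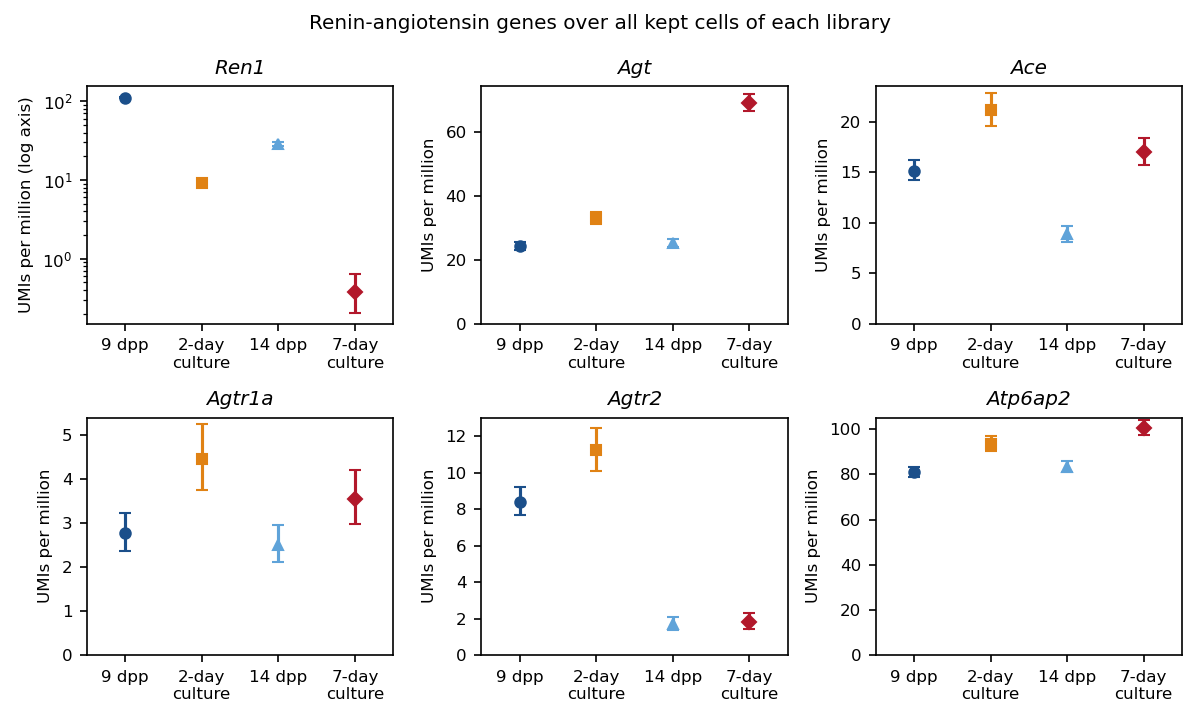
Level of each member over all kept cells of a library, in CPM (logarithmic axis for Ren1, linear from 0 for the others), with 95% counting intervals and 1 library per point. Ren1 runs from 111 at 9 dpp down to 0.377 in the 7-day culture, Agt is highest in the 7-day culture at 69.2, and Agtr2 is 1.71 at 14 dpp and 1.83 in the 7-day culture.

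A member was counted as different when its log2 ratio of CPM + 1 was at least 1 in size. In the 2-day pair 1 of 6 members, Ren1, passed that size, beside 7.6% of the 16616 genes for which the libraries held 50 or more UMIs together. In the 7-day pair 2 of 6 passed, Agt higher and Ren1 lower, beside 6.27% of genes. Between 14 dpp and 9 dpp, Ren1 and Agtr2 were lower by at least that size, beside 6.06% of genes. Between the 7-day and the 2-day culture Agt was higher and Ren1 and Agtr2 were lower, beside 6.88% of genes. These 4 comparisons share libraries and Ren1 was chosen on them, so nothing is read from the counts. Across all those genes the log2 ratio had a median of -0.12 for the 2-day pair and 0.00 for the 7-day one, and the members' ratios are to be read against that shift.

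Leydig-like cells held most of the in vivo Ren1 UMIs, so their values are largely the counts on which Ren1 was chosen and are given as a description. At 9 dpp the 102 Leydig-like cells held 4285 CPM of Ren1 (6170 UMIs) and at 14 dpp the 130 cells held 766 CPM (725 to 809, 1309 UMIs). After 2 days of culture the 67 cells held 174 CPM (142 to 212, 98 UMIs), and after 7 days the 52 cells held 3.53 CPM (0.427 to 12.7, 2 UMIs). By clusters the 116 Leydig cells of the 2-day culture stood at 152 CPM (127 to 180, 130 UMIs), and at 77.0 CPM without their 3 highest cells, against 4311 and 3822 CPM at 9 dpp. The intervals of the 4 libraries did not overlap. The log2 ratio was -4.61 (-4.90 to -4.33) in the 2-day pair. In the 7-day pair it was -7.40 (-8.96 to -5.85), and the ratio of CPM, which rests on 2 UMIs in culture, was 217-fold lower with a counting interval of 60.0 to 1796. From 9 dpp to 14 dpp the Leydig-like level differed by a log2 ratio of -2.48 (-2.57 to -2.40).

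Leydig-like cells held 1.75% of the kept UMIs after 2 days of culture and 1.53% after 7 days, against 2.50% at 9 dpp and 3.04% at 14 dpp. The part of this share in the whole-library Ren1 difference was not tested. Leydig-like cells held 96.4% of all Ren1 UMIs at 9 dpp and 81.5% at 14 dpp. In culture they held 33% of the few that were left after 2 days and 14.3% after 7 days. Cells that no marker list could name held 145 of the 297 Ren1 UMIs of the 2-day culture, or 68.6 CPM, against 53 UMIs and 21.3 CPM at 9 dpp.

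Ren1 in single Leydig-like cells is given here as a description, since cells of 1 library are not replicates. The median Leydig-like cell had 33.5 Ren1 UMIs at 9 dpp and 5.5 at 14 dpp, and none in either culture. The highest cell had 342 UMIs at 9 dpp, 57 at 14 dpp, 31 after 2 days of culture and 1 after 7 days. The 98 UMIs of the 2-day culture lay in 20 of the 67 cells, and 2 of these cells had 20 or more each. With each cell thinned to 2000 UMIs, 85.0% of Leydig-like cells (76.5 to 91.4) had a Ren1 UMI at 9 dpp, 53.8% (44.9 to 62.6) at 14 dpp, 12.5% (5.55 to 23.2) in the 2-day culture and 1.92% (0.0487 to 10.3) in the 7-day culture. Thinning left out 2, 0, 3 and 0 cells, in the same order, and the shares without thinning were 93.1%, 83.8%, 29.9% and 3.85%. Germ-like cells, which are taken to lack Ren1, had thinned shares of 0.497%, 0.0849%, 0.0438% and 0%. The 7-day culture share in Leydig-like cells rests on 1 cell. Median depth in Leydig-like cells was 12309.5 UMIs at 9 dpp, 11862.5 at 14 dpp, 7607 after 2 days of culture and 9865 after 7 days, and in germ-like cells it was 11222, 7018, 3802 and 6849.5.

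**Figure D2:**
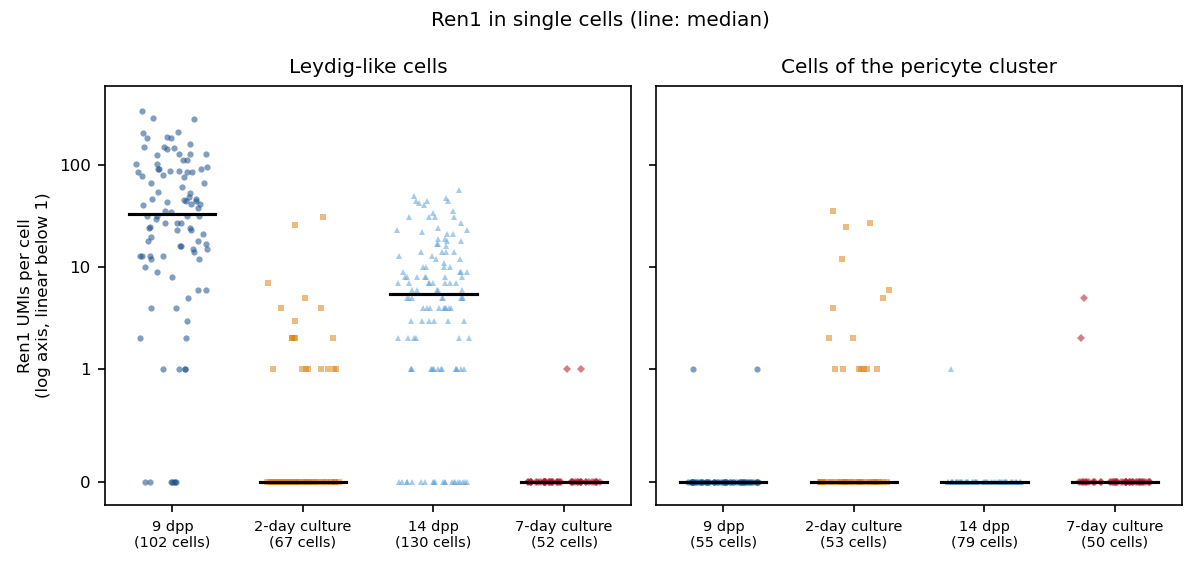
Ren1 UMIs in each Leydig-like cell (left) and each cell of the pericyte cluster (right) by library, on a logarithmic axis that is linear below 1. Points are cells, spread sideways for display, and lines are medians, which are 33.5 at 9 dpp and 5.5 at 14 dpp on the left and 0 in all other groups.

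Other Leydig genes did not all move with Ren1. In Leydig-like cells the androgen synthesis enzyme Cyp17a1 stood at 4206 CPM at 9 dpp and 1518 at 14 dpp, against 67.6 and 231 in the 2-day and 7-day culture. The hormone Insl3 stood at 1522 and 705 in vivo, against 196 and 122 in culture. By contrast Cyp11a1, which makes the first steroid of the pathway, stood at 2904 and 2769 in vivo and at 4831 and 5174 in culture. Hsd3b1, the next enzyme of the pathway, went both ways, with 3902 and 2117 CPM at 9 dpp and 14 dpp against 1859 and 4557 after 2 and 7 days. Star, the cholesterol carrier, was at 755, 912, 559 and 118 CPM at 9 dpp, 14 dpp, 2 days and 7 days, and Lhcgr, the receptor for luteinizing hormone, at 133, 82.5, 30.2 and 123. Summed over the 6 markers the list stood at 7542 and 10325 CPM in the cultures and 13422 and 8104 in vivo. Since these markers also set the class, their part in the Ren1 difference was not tested. With Insl3 taken off the marker list the 2-day pair ratio of Ren1 was -4.90.

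Hsd3b6, an enzyme of adult Leydig cells, was at 652 CPM in Leydig-like cells at 14 dpp and at 1.78, 10.6 and 2.78 CPM after 2 days, after 7 days and at 9 dpp. At 14 dpp the Leydig-like cells with an Hsd3b6 UMI had 923 CPM of Ren1 and those without had 601. At 9 dpp the order was the reverse, at 620 and 4369 CPM, but only 2 cells had both genes and 1 had Hsd3b6 alone. Akr1b7, an aldose reductase known to be made with renin in kidney cells, stood at 54.9 CPM in Leydig-like cells at 9 dpp, 116 at 14 dpp and 32.0 in the 2-day culture, and had no UMI in the 7-day culture. Against 14 dpp that is at least 22.0-fold lower, with 3 UMIs as the floor.

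**Figure D3:**
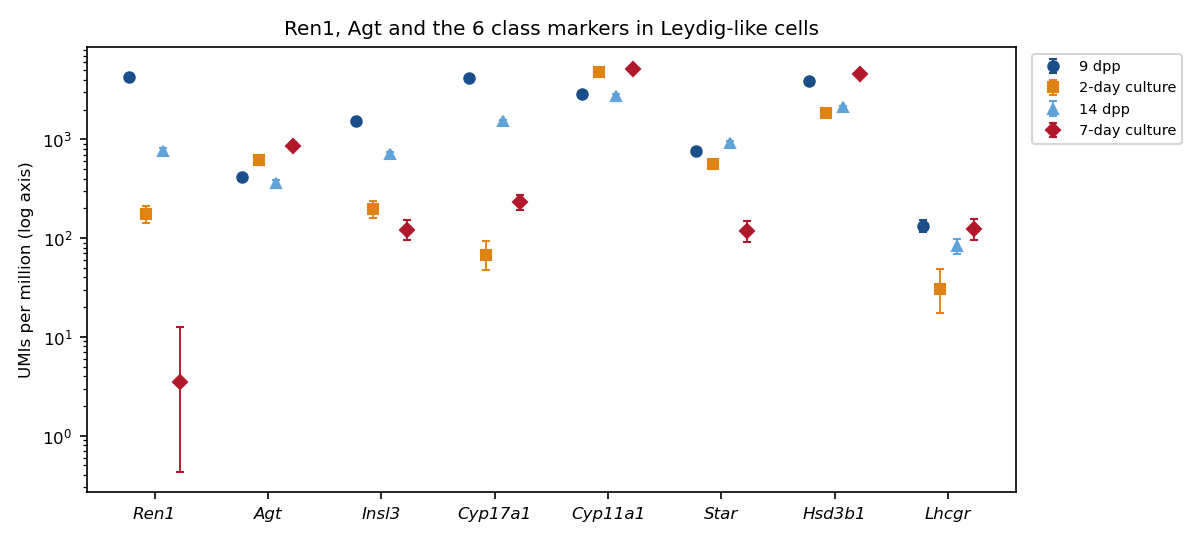
Ren1, Agt and the 6 class markers in Leydig-like cells, in CPM on a logarithmic axis with 95% counting intervals. Ren1, Insl3 and Cyp17a1 are lower in both cultures than in both in vivo libraries, while Agt and Cyp11a1 are higher in both cultures.

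Agt was highest in Leydig-like cells in every library, and there it differed in the opposite direction to Ren1. It stood at 414 CPM (381 to 449) at 9 dpp, 615 (552 to 684) after 2 days of culture, 359 (331 to 389) at 14 dpp and 866 (791 to 946) after 7 days. The cultures lay above both in vivo libraries. The log2 ratio was 0.57 (0.38 to 0.76) for the 2-day pair and 1.27 (1.10 to 1.44) for the 7-day pair. The 2-day ratio was 0.09 when the class was taken from clusters, which hold 116 cells in that library. The median cell had 1 Agt UMI in each culture and 2 in vivo, and the highest cell of a library had 49 to 84. The stromal list in Leydig-like cells summed to 1268 and 1460 CPM after 2 and 7 days, against 1889 and 2150 at 9 dpp and 14 dpp. The pericyte list summed to 49.8 and 192 CPM against 52.8 and 56.2. The part of these lists in the Agt ratios was not tested. Of the 4 members with at least 50 UMIs in the class, 2 were lower by 2-fold or more in the 2-day pair, Ren1 and Agtr2, beside 15.9% of 7459 genes, and Agtr2 had a ratio of -1.03 with an interval (-2.19 to 0.12) on both sides of 0. In the 7-day pair Agt was higher and Ren1 and Agtr2 were lower, beside 15.4% of genes, with a ratio for Agtr2 of -1.64 (-3.57 to 0.29).

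Stromal or myoid cells, a far larger class of 1096 to 2380 cells, held 43.9% to 60.2% of all Agt UMIs. Agt stood there at 67.0 CPM (61.9 to 72.5) at 9 dpp, 44.2 (40.3 to 48.4) after 2 days of culture, 136 (126 to 147) at 14 dpp and 226 (215 to 238) after 7 days. The 2-day culture was the lowest library and the 7-day culture the highest. The log2 ratio was -0.59 (-0.76 to -0.42) for the 2-day pair and 0.73 (0.59 to 0.86) for the 7-day pair. Both the in vivo and the culture series were higher at the later time, with log2 ratios of 1.014 (0.86 to 1.17) between 9 and 14 dpp and 2.33 (2.18 to 2.47) between 2 and 7 days. With cells thinned to 2000 UMIs the share with an Agt UMI was 11.7%, 7.76%, 19.6% and 26.3% at 9 dpp, after 2 days, at 14 dpp and after 7 days, against at most 0.438% of germ-like cells. Without thinning the shares were 23.5%, 14.7%, 32.5% and 38.8%, at median depths of 5599, 3779.5, 4062 and 4119.5 UMIs.

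Agt was highest on the stromal side of this class. Cells with stromal but few myoid markers had 111, 56.5, 271 and 315 CPM at 9 dpp, after 2 days, at 14 dpp and after 7 days. Cells with both kinds of marker had 13.6, 20.9, 27.9 and 64.3 CPM. The 45 to 110 cells per library with myoid but few stromal markers had 51.0, 6.01, 57.7 and 23.5 CPM, from 1 to 21 UMIs. The stromal side was the highest of these in all 4 libraries. Its cells made up 780 of 1499 cells of the class at 9 dpp and 1483 of 2380 after 2 days. They made up 451 of 1096 at 14 dpp and 887 of 1470 after 7 days. The myoid list in the whole class summed to 8497 and 11619 CPM at 9 dpp and 14 dpp, against 3112 and 4980 after 2 and 7 days. The part of this mix in the class ratios of Agt was not tested. The nurse cells of the tubules, Sertoli cells, lay in separate clusters by library: clusters 7 and 18 held those of the cultures, cluster 14 those of 9 dpp and cluster 16 those of 14 dpp. Sertoli-like cells had little Agt in vivo, 6.04 CPM at 9 dpp and 1.26 at 14 dpp, and more in culture, 25.2 after 2 days and 22.1 after 7 days. The log2 ratios were 1.89 (1.55 to 2.23) and 3.36 (2.81 to 3.91). The summed stromal marker list in Sertoli-like cells moved the same way, with 100 and 30.5 CPM in the cultures against 20.3 and 14.8 in vivo, and its part in this difference was not tested. Pericyte-like cells held 74.9 to 138 CPM of Agt with wide, overlapping intervals.

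**Figure D4:**
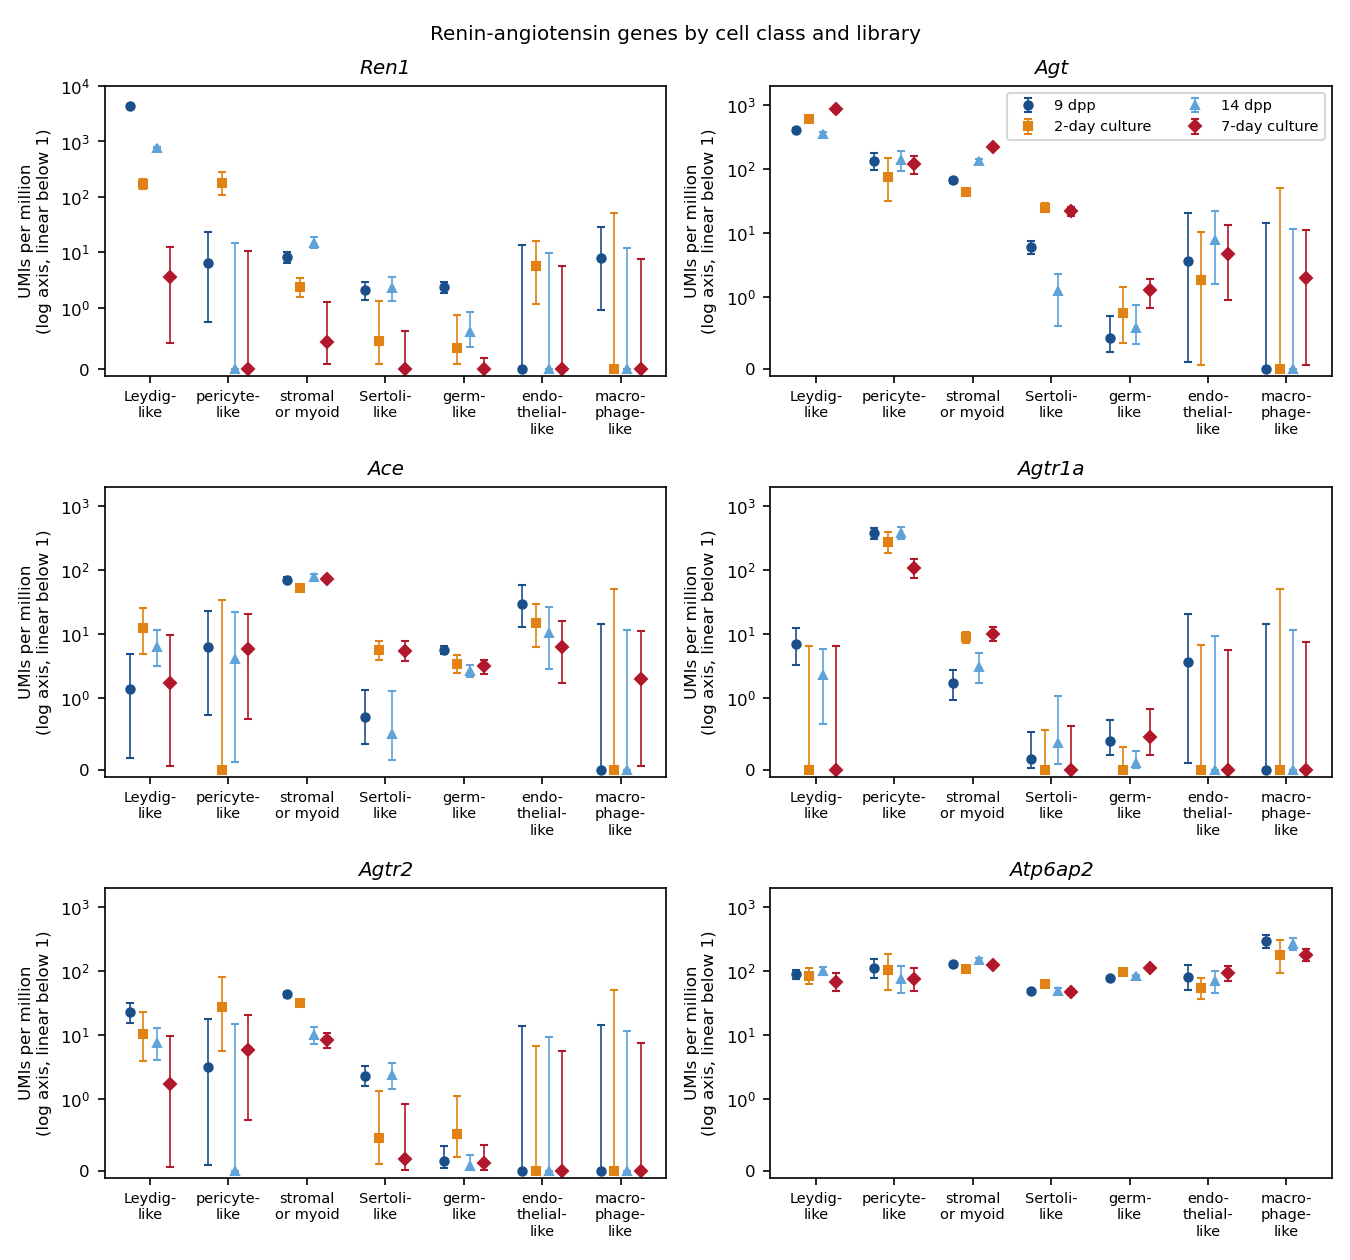
Level of each member in 7 cell classes and 4 libraries, in CPM on a logarithmic axis that is linear below 1, with 95% counting intervals. Ren1 at 9 dpp peaks at 4285 in Leydig-like cells, Agt is highest in Leydig-like cells, Ace in stromal or myoid cells, Agtr1a in pericyte-like cells, and Atp6ap2 is present in all classes shown.

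Pericyte-like cells, the mural cells of small vessels, held Ren1 UMIs mainly in the 2-day culture. The 23 pericyte-like cells of that library held 178 CPM (107 to 278, 19 UMIs in 7 cells), against 6.35 CPM (2 UMIs) at 9 dpp. No UMI was seen in the 42 cells of the 7-day culture or the 51 cells of 14 dpp, where the upper limits are 10.8 and 14.95 CPM. The ratio of the 2-day culture to 9 dpp was 28.05-fold higher with a counting interval of 6.77 to 248. This interval overlapped that of the Leydig-like cells of the same library (174 CPM, 142 to 212), and both levels rest on few cells. The class rule demands a 2-fold lead over the Leydig marker list, which in part fixes a low value of that list. It was nearly silent in the pericyte-like cells of the 2-day culture, with 1 of 6 markers seen and a sum of 9.37 CPM. The stromal list summed to 2670 CPM in them, against 1060 at 9 dpp, and 10 of the 23 cells lay near the limit of the class. The part of these values in the Ren1 level was not tested.

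Clusters of all cells, used as an alternative chosen after the data were seen, gave a larger group. The pericyte cluster held 53 cells of the 2-day culture with 126 Ren1 UMIs, or 780 CPM (649 to 928). Those UMIs lay in 16 cells, 9 of which had no class by the marker rule, and the 3 highest cells had 36, 27 and 25. Without its 3 highest cells the cluster stood at 247 CPM, as the Leydig cluster of this library stood at 77.0 CPM without its own. In the other libraries the same cluster stood at 17.2 CPM in the 7-day culture (7 UMIs), 5.58 at 9 dpp (2 UMIs) and 3.00 at 14 dpp (1 UMI). The 16 cells together held 71 UMIs of Kcnj8, a potassium channel of pericytes, 27 of Rgs5 and 19 of Agtr1a. They held 10 UMIs of Cyp11a1 and none of Insl3 or Cyp17a1. In this library the Leydig cluster held 130 Ren1 UMIs of the 297 in all.

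The pericyte markers were not constant across libraries. Rgs5, a brake on receptor signalling in mural cells, stood at 506 CPM in the pericyte-like cells of the 2-day culture and 549 in the 7-day culture, against 3106 at 9 dpp and 3401 at 14 dpp. Kcnj8 was the reverse, at 1724 and 1220 CPM in culture and 524 and 458 in vivo. Summed over the 7 markers the list stood at 3035 and 2373 CPM in culture and at 5492 and 5452 in vivo. The smooth muscle genes of the myoid list summed to 1808 and 2540 CPM in culture and 9223 and 14516 in vivo. The part of these differences in the Ren1 and Agtr1a results was not tested.

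Ace was a gene of stromal or myoid cells, which held 74.9% to 82.6% of its UMIs. It stood there at 71.8 CPM (66.5 to 77.5) at 9 dpp, 53.5 (49.1 to 58.1) after 2 days of culture, 78.0 (70.3 to 86.3) at 14 dpp and 74.0 (67.7 to 80.7) after 7 days. The log2 ratio was -0.42 (-0.58 to -0.26) for the 2-day pair and -0.08 (-0.27 to 0.11) for the 7-day pair. The class taken as a whole thus had no higher Ace in culture, although both whole-library ratios were above 0. Its share of kept UMIs was 32.8% and 18.4% in the cultures against 16.2% at 9 dpp and 8.53% at 14 dpp. Within the class Ace was highest where myoid markers were present. Cells with both kinds of marker held 123, 88.8, 114 and 118 CPM at 9 dpp, after 2 days, at 14 dpp and after 7 days. In the same order the stromal side held 27.9, 34.8, 37.2 and 49.4 CPM. Cells with myoid but few stromal markers held 125, 114, 79.6 and 131 CPM, from 19 to 29 UMIs. In the 7-day pair each of these kinds of cell was higher in culture, with overlapping intervals. In the 2-day pair only the stromal side was higher in culture. The mix of sides, given above for Agt, also differed between culture and in vivo, and its part was not tested.

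Germ-like cells, the class in which the short testis form of Ace is known from later stages, held 5.68 CPM of Ace at 9 dpp, 3.46 in the 2-day culture, 2.68 at 14 dpp and 3.16 in the 7-day culture. Thinned shares of germ-like cells with an Ace UMI were between 0.570% and 0.911%. The 11 pachytene cells found at 14 dpp had no Ace UMI, with an upper limit of 12.7 CPM. Sertoli-like cells, which lay in different clusters in culture, at 9 dpp and at 14 dpp, had 5.61 and 5.53 CPM of Ace in the cultures and 0.737 and 0.502 in vivo, with log2 ratios of 1.93 (1.38 to 2.48) and 2.12 (1.49 to 2.75). As for Agt, the stromal marker list was higher in the cultured Sertoli-like cells. The myoid list was not, at 219 and 210 CPM in the cultures against 243 and 222 in vivo. The part of either list was not tested. Endothelial-like cells, in which Ace is a classic surface enzyme, held 6.27 to 29.99 CPM from 4 to 8 UMIs per library, too few to order the libraries.

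Agtr1a was highest per UMI in pericyte-like cells in each of the 4 libraries. It stood at 378 CPM (313 to 452, 119 UMIs) in the pericyte-like cells of 9 dpp, 381 (308 to 466, 94 UMIs) at 14 dpp, 281 (190 to 401, 30 UMIs) in the 2-day culture and 108 (76.0 to 149, 37 UMIs) in the 7-day culture. The 7-day culture lay below the intervals of the other 3 libraries. The log2 ratio was -0.42 (-1.0 to 0.15) for the 2-day pair and -1.81 (-2.35 to -1.26) for the 7-day pair. With the class taken from clusters the 7-day ratio was -1.22, from 121 CPM in culture and 282 at 14 dpp. Of the 42 pericyte-like cells of the 7-day culture 17 lay near the limit of the class, against 11 of 51 at 14 dpp. With cells thinned to 2000 UMIs, 54.2% of pericyte-like cells had an Agtr1a UMI at 9 dpp and 45.8% at 14 dpp, against 6 of 20 after 2 days and 19.05% after 7 days. Without thinning the shares were 68.8%, 60.8%, 65.2% and 42.9%, at median depths of 5558, 3775, 3279 and 8386.5 UMIs. With cells thinned to 1000 UMIs the values were closer, at 25.0% and 25.5% in vivo and 21.7% and 11.9% after 2 and 7 days. At most 0.166% of germ-like cells thinned to 2000 UMIs had one.

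Stromal or myoid cells had far lower Agtr1a, and there the cultures were the higher libraries. They held 8.94 CPM (7.23 to 10.9) after 2 days and 10.2 (7.98 to 12.9) after 7 days, against 1.72 (0.981 to 2.79) at 9 dpp and 3.13 (1.75 to 5.16) at 14 dpp. The log2 ratios were 1.87 (1.35 to 2.39) and 1.44 (0.81 to 2.08). The summed pericyte marker list in this class was at 34.1 and 63.9 CPM in culture and 65.2 and 89.9 in vivo, but that list was also lower in the cultured pericyte-like cells themselves. The part of pericyte RNA in this difference was not tested. Pericyte-like cells held 74.4% of Agtr1a UMIs at 9 dpp and 66.7% at 14 dpp, but 20.98% after 2 days of culture and 28.03% after 7 days, where the stromal or myoid class held 94 and 70 UMIs against 30 and 37 in pericyte-like cells.

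In stromal or myoid cells Agtr2 lay on the stromal side and was higher at the earlier time in both series. Stromal or myoid cells held 43.5 CPM (39.4 to 48.0) at 9 dpp, 32.1 (28.7 to 35.7) after 2 days of culture, 10.0 (7.38 to 13.3) at 14 dpp and 8.33 (6.31 to 10.8) after 7 days. The intervals of the earlier and the later time did not overlap in either series. The log2 ratio was -2.02 (-2.41 to -1.62) from 9 to 14 dpp and -1.82 (-2.19 to -1.46) between 2 and 7 days of culture. Against the in vivo library of the same age it was -0.43 (-0.63 to -0.23) for the 2-day pair and -0.24 (-0.74 to 0.26) for the 7-day pair, where clusters or the stricter marker rule moved it as far as 0.022. Leydig-like cells held 22.9 CPM at 9 dpp, in 21 of 102 cells, and 7.61 at 14 dpp, where the interval (4.05 to 13.0) overlapped that of the stromal or myoid class. Pericyte-like cells held 28.1 CPM after 2 days of culture, from 3 UMIs. The stromal or myoid class was the highest in all 4 libraries, but Leydig cells were highest at 14 dpp by clusters. Pericytes were highest after 2 days under the stricter marker rule, from 3 UMIs in 1 cell of a class with fewer than 20 cells. Within the stromal or myoid class, cells with few myoid markers held 80.4 CPM (72.7 to 88.6) at 9 dpp and 47.9 (42.9 to 53.3) after 2 days. They held 22.9 (16.9 to 30.3) at 14 dpp and 12.4 (9.31 to 16.1) after 7 days. On this side the culture was thus lower in both pairs, with intervals that did not overlap. Cells with both kinds of marker held at most 1.18 CPM. The part of the mix of sides in the class ratios was not tested.

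Agtr2 and Ace lay on opposite sides of the stromal or myoid class. Cells with an Agtr2 UMI had 24.8 CPM of Ace at 9 dpp against 78.9 in cells without, and 22.9 against 57.0 in the 2-day culture. After 7 days the values were 24.6 and 76.1, and at 14 dpp, where 22 cells had an Agtr2 UMI, 40.0 and 78.8. Agt was higher in cells with an Agtr2 UMI in all 4 libraries, at 173 CPM against 51.1 at 9 dpp, 55.8 against 42.9 after 2 days, 259.9 against 134 at 14 dpp and 348 against 221 after 7 days. Cells with more UMIs in all are more likely to show any gene, which is why levels are scaled to the cells' total.

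**Figure D5:**
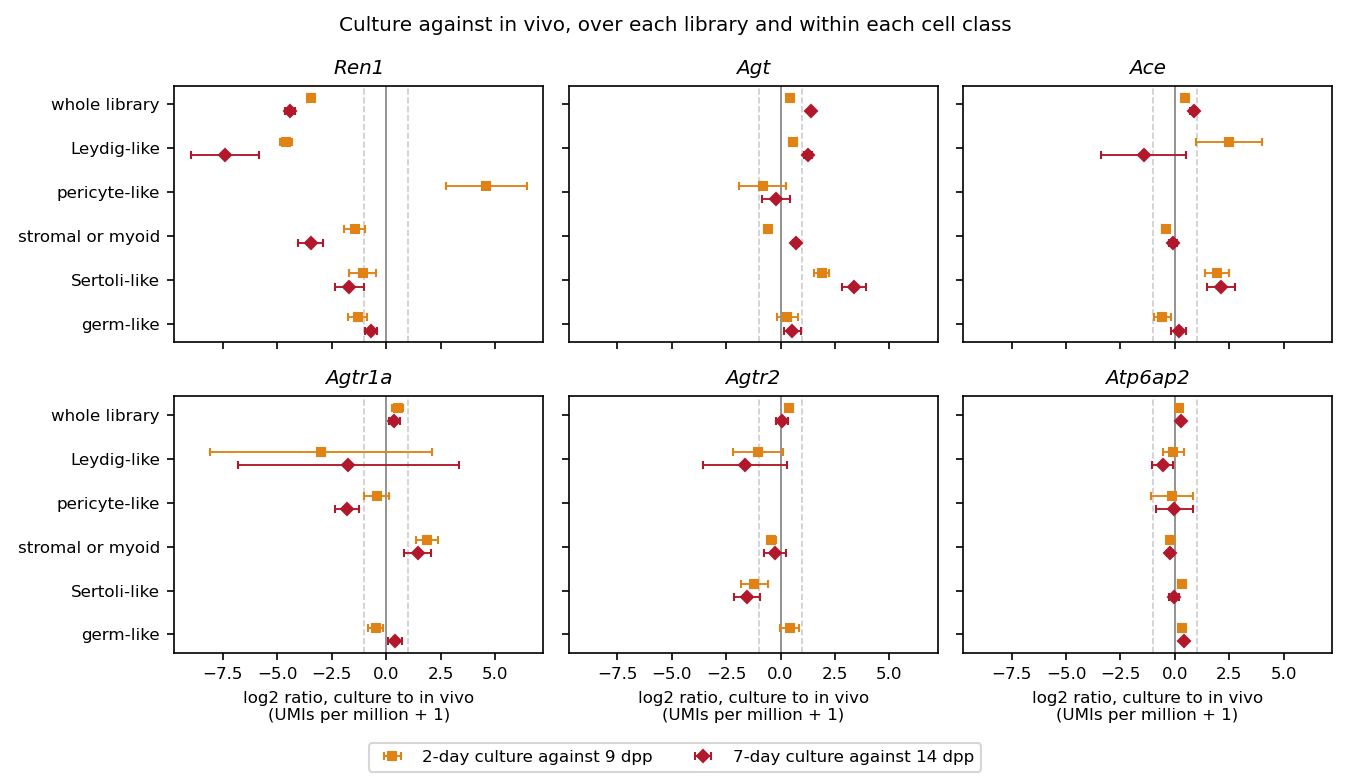
Log2 ratio of culture to in vivo (CPM + 1) for each member over whole libraries and within classes, with 95% counting intervals and dashed lines at 2-fold. Ren1 is lower in Leydig-like cells in both pairs and higher in pericyte-like cells in the 2-day pair (4.61), and Agtr1a is higher in stromal or myoid cells (1.87 and 1.44). The whole-library 2-day ratios of Agt, Agtr1a and Agtr2 and the 7-day ratios of Agtr1a and Agtr2 change sign with each cell weighted equally. Ratios resting on 3 or fewer UMIs on both sides are not drawn.

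Atp6ap2, the prorenin receptor, was present in every class and differed little between the whole libraries. Germ-like cells held 78.0 CPM at 9 dpp, 97.5 in the 2-day culture, 83.8 at 14 dpp and 111 in the 7-day culture, with log2 ratios of 0.32 (0.22 to 0.42) and 0.40 (0.32 to 0.48). The cells behind these values differed in cluster and stage: clusters 2 and 11 were mostly in vivo cells and 6 and 10 mostly cultured ones. Early meiotic prophase made up 87 of 2433 germ-like cells at 9 dpp and 371 of 2585 after 2 days. It made up 688 of 3585 at 14 dpp and 671 of 2340 after 7 days. In the stromal or myoid class the sign was the opposite, with -0.23 (-0.34 to -0.11) and -0.22 (-0.37 to -0.08). Macrophage-like cells had the highest level, 296 CPM at 9 dpp and 269 at 14 dpp, with 180 and 181 CPM from 8 and 14 cells in the cultures. After 2 days their interval overlapped that of stromal or myoid cells (110 CPM). Among classes with at least 20 cells, the stromal or myoid class was highest in both cultures. Within germ-like cells the early meiotic prophase stage stood above differentiating spermatogonia in all 4 libraries, at 126, 126, 135 and 196 CPM against 68.7, 83.9, 69.3 and 87.1 at 9 dpp, after 2 days, at 14 dpp and after 7 days. The early prophase intervals at 9 dpp (97.8 to 159) and after 2 days (105 to 151) overlapped. Those at 14 dpp (123 to 148) and after 7 days (183 to 210) did not. The intervals of differentiating spermatogonia did not overlap in either pair. They were 64.1 to 73.5 at 9 dpp and 76.7 to 91.5 after 2 days, and 64.5 to 74.3 at 14 dpp and 79.4 to 95.4 after 7 days. The 11 pachytene cells at 14 dpp, with a median of 33852 UMIs, held 1 UMI of this X-linked gene, or 3.45 CPM (0.0872 to 19.2).

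Of 59 further genes of the pathway, chosen as receptors and their partners, peptidases, proton pump partners, receptor signalling genes and renin regulators, 51 had at least 50 UMIs. In the 2-day pair 2 were higher by 2-fold or more (Gja4 and Cx3cl1) and 3 were lower (Rgs5, Rnpep and Ebf1), and in the 7-day pair 2 were higher (Gja4 among them) and 2 lower (Rgs5 and Akr1b7). Over all genes 4.19% were higher and 3.41% lower by that size in the 2-day pair, against 3.6% and 2.67% in the 7-day pair, so these shares were near the background. With TMM scaling the 2-day pair had 3 past that size, 2 of them higher, and the 7-day pair 3, of which 1 was higher, and with 0.1 added in place of 1 each pair had 6. The median ratio of the 51 was -0.15 for the 2-day pair and -0.07 for the 7-day pair, beside -0.12 and 0.00 over all genes. None of the 6 proton pump partners of Atp6ap2 and none of the 4 receptors or partners with enough UMIs passed that size in either pair. Gja4, a gap junction protein of small vessels, stood at 6.96 CPM at 9 dpp, 23.3 in the 2-day culture, 6.64 at 14 dpp and 34.3 in the 7-day culture. Agtr1b, the other type 1 receptor gene of mouse, stayed at or below 0.162 CPM in each library.

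Likeness of pattern was measured across 25 combinations of class and library with at least 20 cells, over 16616 genes, as Pearson's r of log2 CPM + 1. The points share libraries and classes, so r is a description. The genes most like Ren1 were Olfr873 (0.81), Mia (0.80) and Cdhr5 (0.80), all of low counts. For Agt they were Pcolce (0.93) and Ccdc8 (0.93), and for Agtr1a Pde3a (0.95), Tbx3os1 (0.95) and Bhlhe22 (0.94). Rprml (0.85), Flnc (0.82) and 3632451O06Rik (0.82) were most like Ace. For Agtr2 the genes were Tnfaip6 (0.89), C1qtnf3 (0.88) and Efna5 (0.86), and for Atp6ap2 Arhgap45 (0.87), Emilin2 (0.85) and Plek (0.84).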

How the data were processed

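Single-cell RNA sequencing (10x Chromium 3′ v2 chemistry) was run on 4 mouse testis libraries, 1 per group. The deposited files hold raw UMI counts of each gene in each barcode, and Cell Ranger 3.0.2 and the build mm10 are named for them per the submitters' processing notes. How cells were called is not given in the sources used here. Barcodes needed 500 genes or more and no more than 20% mitochondrial UMIs, and 93 to 253 doublet calls per library (Scrublet, 6% expected) were removed. The 35 symbols with several identifiers were summed.

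A cell took a class when its marker score (at most 5 UMIs per marker, lists scaled to a length of 6) reached 6 with at least 3 markers and a 2-fold lead over the next class, a rule set after the data were seen. Where a Leydig or pericyte score passed, the stromal and myoid lists, whose markers those cells also carry, were left out of that lead. Levels are CPM with exact Poisson intervals, shares have exact Clopper-Pearson intervals at 95%, and ratios are log2 of CPM + 1. Folds against 0 used a floor of 3 UMIs. PCR duplicates are removed by UMIs, and all intervals cover counting error only. Shares were compared after thinning each cell to 2000 UMIs. Ratios within a class needed at least 20 cells per library. Clusters (Leiden, resolution 1, 30 components, 20 neighbours, 2000 variable genes) served as an alternative. The ratio intervals were checked on Poisson counts simulated at the whole-library depth of the 2-day pair. That check does not cover UMIs clumped in few cells or the small classes. The 6 members were all named, with the genes most like each by correlation and those pathway genes past 2-fold. Some genes that this rule names are not reported here. Members and lists were chosen with earlier results of these data known. Coordinates came from GENCODE M21 on GRCm38. Software was Python 3.11.15, scanpy 1.11.5, scipy 1.17.1, numpy 2.4.6, leidenalg 0.10.2 and, for TMM scaling only, R 4.3.3 with edgeR 4.0.16. Alternatives were other scalings, constants, filters, marker rules, thinning depths and cell weights.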

Additional observations from a re-analysis of the deposited data

Results flagged for a closer look

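Some members differed in opposite directions in different cell classes of the same pair of libraries, and none of these differences was tested, since each group had 1 library. In the 2-day pair Ren1 had a log2 ratio of -4.61 in Leydig-like cells and 4.61 in pericyte-like cells. In the same pair Agt had a ratio of 0.57 in Leydig-like cells, -0.59 in stromal or myoid cells and 1.89 in Sertoli-like cells. In the 7-day pair Agtr1a had a ratio of -1.81 in pericyte-like cells and 1.44 in stromal or myoid cells.

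Agt in stromal or myoid cells also differed in direction between the pairs, with -0.59 after 2 days of culture and 0.73 after 7 days, each against its in vivo library. That difference was not tested either.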

How the results depend on the processing

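No paired analysis was possible because each group had 1 library. Of 138 alternative values for the main results, 100 stayed within the counting interval and none of those with a 2-fold difference changed sign. With TMM scaling the 2-day pair ratios were -3.29 for Ren1, 0.60 for Agt, 0.62 for Ace and 0.37 for Atp6ap2. With each cell weighted equally they were -3.04 for Ren1, -0.18 for Agt, 0.17 for Ace, -0.020 for Agtr1a, -0.36 for Agtr2 and 0.13 for Atp6ap2, and in the 7-day pair -4.05 for Ren1, -0.36 for Agtr1a, -0.19 for Agtr2 and 0.13 for Atp6ap2. The 7-day ratio of Ren1 was -5.91 with 0.1 added and -6.24 with nothing added. With at least 1000 genes and at most 10% mitochondrial UMIs per cell, Agt was at 0.60 and 1.53 in the 2-day and 7-day pair. Ren1 in Leydig-like cells of the 2-day pair was at -4.90 without Insl3 as a marker and -5.12 under the stricter marker rule, which was chosen after the data were seen, as were clusters and the subtraction of free RNA. In pericyte-like cells the Ren1 ratio of the 2-day pair was 6.89 under clusters and 5.16 with free RNA subtracted. The stricter rule gave no ratio there, since it left too few pericyte-like cells after 2 days.

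Without thinning, Ren1 was seen in 29.9%, 93.1% and 83.8% of Leydig-like cells after 2 days, at 9 dpp and at 14 dpp, and with 1000 UMIs in 0% after 7 days, 76.2% at 9 dpp and 39.2% at 14 dpp. Agtr1a was seen in 65.2%, 42.9% and 68.8% of pericyte-like cells after 2 days, after 7 days and at 9 dpp without thinning, and with 1000 UMIs in 25.0% at 9 dpp and 25.5% at 14 dpp, against 21.7% and 11.9% after 2 and 7 days. Agt was seen in 14.7%, 38.8%, 23.5% and 32.5% of stromal or myoid cells after 2 days, after 7 days, at 9 dpp and at 14 dpp without thinning, and in 4.47%, 16.95%, 6.35% and 11.6% with 1000 UMIs. The cause of the other shifts was not tested. Small classes and few UMIs limited Ren1 after 7 days, all pericyte-like values and Ace in endothelial-like cells.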
